A study of Mus musculus with 19 samples.

Results

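Mature oligodendrocytes were represented by 9 genes of myelin, Mbp, Mobp, Mag, Mog, Cnp, Cldn11, Mal, Ugt8a and Gltp, which were taken by symbol from the 20436 genes counted in hippocampal slices of the mouse. The slices came from wild-type male mice of 28 to 42 postnatal days on a C57BL/6J background, and they were exposed for 5 min to DHPG at 100 µM, an agonist of group 1 metabotropic glutamate receptors, or to artificial cerebrospinal fluid as vehicle (basal). Cycloheximide at 100 µg/ml, which halts elongating ribosomes, was then applied to every slice of either group. Each replicate was a pool of slices from several mice in which the CA3 field had been kept. RNA-seq gave 4 basal and 5 DHPG libraries, and ribosome profiling, which sequences the mRNA fragments protected by ribosomes (RPFs), gave 5 and 5.

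Oligodendrocytes wrap axons of the central nervous system in myelin, a stack of membranes that is rich in galactolipids and poor in cytoplasm. A small set of proteins compacts the stack, seals it and joins it to the axon, and the mRNAs of these proteins are among the most abundant of the mature cell. The mRNA of Mbp is carried into the cell's processes and translated beside the growing membrane. The hippocampus holds its myelinated fibers in the alveus, the fimbria and scattered axons of its layers, and oligodendrocytes are a minority of its cells.

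The 9 genes were taken by symbol, and a few markers are given beside them as a description that does not test the label. Tspan2, a tetraspanin of oligodendrocytes, stood at 76.1 ± 24.6 CPM (counts scaled to the size of the library, SD, n = 4) in basal RNA and 185 ± 47.4 CPM (SD, n = 5) in basal RPF. Of the markers of Schwann cells, which make myelin outside the brain, Pmp2 had 0 counts in 9 of 9 RNA libraries and in 5 of 10 RPF libraries, and it did not exceed 3 counts in the others. Prx was at 2.32 to 5.15 CPM in RNA and 0.0552 to 0.470 CPM in RPF.

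Library totals were 4870813 to 7793244 counts in RNA and 5692064 to 22092434 in RPF, of which the 9 genes together took 0.162% to 0.347% and 0.270% to 0.531%. All 9 passed the filter on low counts in both assays. RNA and RPF libraries of the same replicate and treatment were made from 1 lysate, so that the assays are not independent of each other.

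The DNA before the starts of the genes was also read. The SOX10 factor drives many myelin genes, and factors of its family bind sequences around a core that includes ACAAAG and ACAATG. In the 250 nt before RefSeq transcript starts (build GRCm38.p6), 1 of these 2 hexamers occurred on either strand in 25.2% of 32851 promoters. Sequence was read for 10 promoters of 8 of the genes, all but Mbp, and 4 promoters of 3 genes held a match. Of these 4, 2 are overlapping windows of Mag that hold the same match. The 3 windows nearest the genes' annotated starts that hold one are shown, cut where the GENCODE gene begins, with the matches in capitals (CTTTGT is ACAAAG on the other strand). They lay at chr9:120149492-120149706 on the plus strand for Mobp, chr7:30914874-30915113 on the minus strand for Mag and chr11:100574689-100574903 on the plus strand for Cnp.
Mobp: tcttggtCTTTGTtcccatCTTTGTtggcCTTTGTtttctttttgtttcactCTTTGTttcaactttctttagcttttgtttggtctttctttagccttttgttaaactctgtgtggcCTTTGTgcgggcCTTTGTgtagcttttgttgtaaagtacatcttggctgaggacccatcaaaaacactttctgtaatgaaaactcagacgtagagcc
Mag: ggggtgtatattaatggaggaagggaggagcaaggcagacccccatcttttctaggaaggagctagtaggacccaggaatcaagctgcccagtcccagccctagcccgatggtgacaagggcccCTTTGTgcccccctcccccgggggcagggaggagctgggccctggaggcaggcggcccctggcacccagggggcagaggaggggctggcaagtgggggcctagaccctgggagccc
Cnp: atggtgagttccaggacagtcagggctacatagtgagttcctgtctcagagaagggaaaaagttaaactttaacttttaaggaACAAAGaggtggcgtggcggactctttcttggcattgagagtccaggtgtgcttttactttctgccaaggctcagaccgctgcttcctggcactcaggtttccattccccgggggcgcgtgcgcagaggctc
The window of Mobp held 6 matches within 215 nt, that of Mag 1, beginning at position -126 from the RefSeq start, and that of Cnp 1, at -167. Windows of Mog, Cldn11, Mal, Ugt8a and Gltp held neither hexamer. A match is a string of letters and not a measured binding site, and its part in the levels of these genes was not tested.

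At rest, myelin mRNAs were abundant in the slices and the ribosomes were spread unevenly over them. To compare genes, RNA was expressed as CPM per kb of transcript and RPF as CPM per kb of coding sequence, over the 4 basal replicates with both libraries. By RNA level the order was Cnp at 288, Mag at 220, Mbp at 211, Mog at 155, Mal at 145, Cldn11 at 141, Mobp at 88.5, Gltp at 43.7 and Ugt8a at 42.9 CPM per kb. Neighbors did not differ beyond the SD of their within-replicate difference for Mag and Mbp, Mog and Mal, Mal and Cldn11, or Gltp and Ugt8a. Cnp exceeded Mag in 4 of 4 replicates, by 0.39 ± 0.30 (SD) on the log2 scale. This order rests on annotated transcript lengths. Before scaling to length, mean basal RNA was 166 CPM for Ugt8a, 45.1 CPM for Mobp and 42.7 CPM for Gltp.

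By RPF level the order changed. Mbp, whose protein binds the cytoplasmic faces of compact myelin together, led with 2732 CPM per kb, above 99.8% of genes, and exceeded Cldn11 by 1.72 ± 0.19 on the log2 scale (SD, n = 4 replicates). Cldn11 followed at 829, Cnp at 787, Mal at 786, Mobp at 571, Mag at 384, Mog at 281, Ugt8a at 197 and Gltp at 55.8 CPM per kb. Cldn11, Cnp and Mal could not be ordered, and Mobp and Mag did not differ beyond the SD of their difference. Gltp, the glycolipid transfer protein, was the lowest in RPF, and its level per kb was above 74.3% of genes.

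The log2 ratio of RPF to RNA per length, a measure of ribosome density at rest, had a median of 2.20 over the 9 genes and of 0.82 over the 12229 genes with a value. The median of the 9 stood above 81.6% of genes, and 7 of 9 lay above the median gene. Among other markers, the median was 1.93 over 28 further oligodendrocyte genes, 2.75 over 12 neuronal genes, 1.04 over 12 astrocyte genes and 0.62 over 12 microglial genes. A high ratio was therefore shared with other groups and was not tested as a property of myelin genes.

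Among the 9 genes the log2 ratio ran from 0.35 to 3.70. Mbp had the highest ratio, 3.70 ± 0.19 (SD, n = 4), above 95.8% of genes, and exceeded Mobp in 4 of 4 replicates. Mobp, another small basic protein of compact myelin, followed with 2.69 ± 0.61, and its values were 1.83, 2.79, 3.27 and 2.87 in replicates 1 to 4. The first replicate was thus apart from the others and widened its SD.

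Cldn11, the claudin of the tight junctions that seal the myelin lamellae, was at 2.56 ± 0.13, and Mal, a proteolipid of membrane traffic, at 2.44 ± 0.12. Ugt8a, which makes galactosylceramide, was at 2.20 ± 0.34. Among Mobp, Cldn11, Mal and Ugt8a, no gene differed from its neighbor in the order beyond the SD of the difference. Cnp, an enzyme of the cytoplasmic channels of myelin, lay lower at 1.45 ± 0.14, and Ugt8a exceeded it by 0.75 ± 0.48.

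With median lengths, the immunoglobulin-like proteins of the 2 myelin surfaces sat at the median of all genes. Mog, which faces outward, had a ratio of 0.86 ± 0.12 (above 51.1% of genes), and Mag, which faces the axon, 0.80 ± 0.11 (above 49.6%). Their difference, 0.056 ± 0.096, was within its SD. Gltp was the lowest at 0.35 ± 0.33 (above 37.0%), and Mag exceeded it in 4 of 4 replicates.

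These ratios, like the orders by level, rest on annotated lengths, because RNA was counted on whole transcripts and RPF on coding sequence. Mbp has 14 annotated coding transcripts of 3 to 7 exons, and with the transcript of the longest coding sequence its ratio was 3.38, that of Mag 0.42, that of Mog 1.28 and that of Gltp 1.10. With these lengths Mag and not Gltp was the lowest of the 9, and Mog and Mag lay above 61.4% and 38.1% of genes and no longer both at the median. The DHPG libraries of replicates 1 to 4 gave 3.57 for Mbp and 0.79 for Mag.

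**Figure D1:**
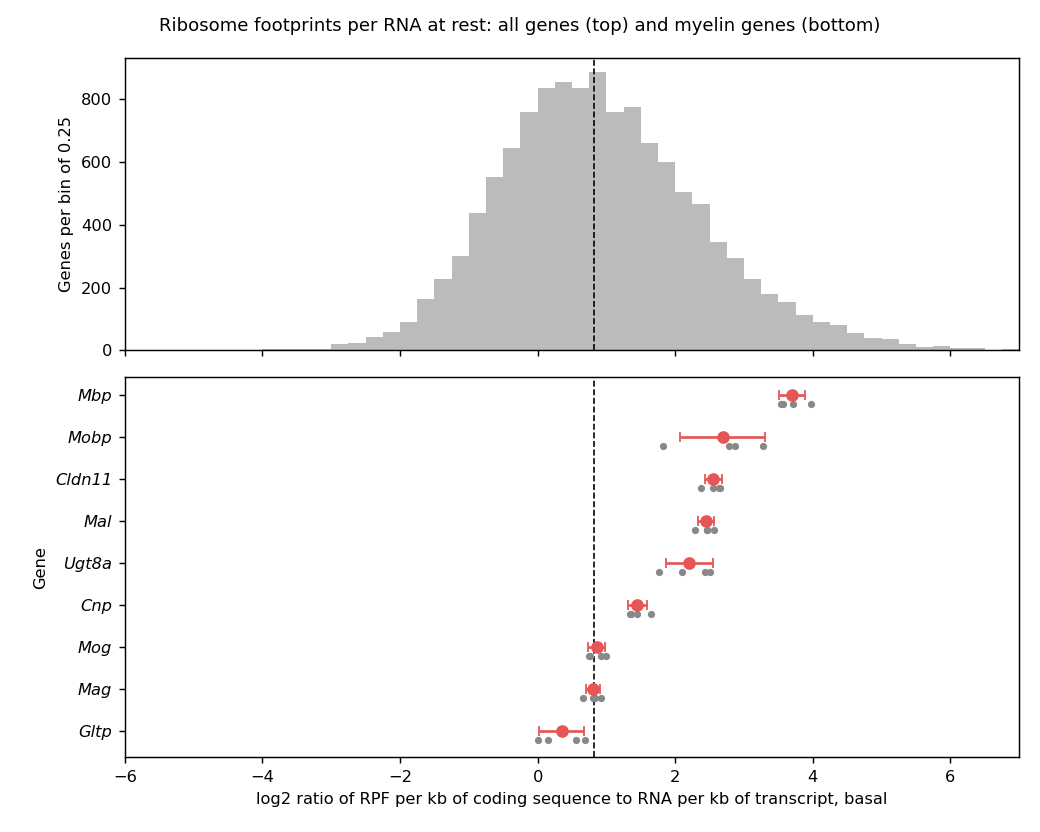
Log2 ratio of RPF per kb of coding sequence to RNA per kb of transcript in basal slices, with the number of genes per bin above and the 9 myelin genes below (red point and bar, mean ± SD over 4 replicates, and gray points, each replicate). The dashed line marks the median of 12229 genes, 0.82, and Mbp at 3.70 lies farthest to the right while Mog and Mag lie on the line.

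Between replicates the 9 genes varied more than most genes, and replicate 4 was low. In bulk tissue, fewer oligodendrocytes and less RNA per oligodendrocyte cannot be told apart, here or in any result that follows. Summed over the 9 genes, basal RPF was 4779, 4747, 4852, 2624 and 4535 CPM in replicates 1 to 5, and DHPG RPF 5016, 5426, 4832, 3030.1 and 4173 CPM. In RNA the sums were 2886, 2967, 3178 and 1573 CPM in basal and 3249, 3481, 3225, 1770 and 2512 CPM in DHPG slices. Replicate 4 was the lowest of every group, with its 2 treatments nearer to each other than to any other replicate, and replicate 5 was next lowest in the 3 groups that have it.

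In RNA, Mag varied most of the 9 genes, with an SD of log2 CPM of 0.74 in basal and 0.62 in DHPG slices. Its RNA was at 603, 679, 783 and 250.4 CPM in basal replicates 1 to 4 and at 779, 812, 760.0, 302 and 471 CPM in DHPG replicates 1 to 5. Its RPF was at 796, 824, 864, 311 and 648 CPM in basal and 936, 958, 855, 396 and 662 CPM in DHPG slices. Replicate 4 of each group stood below all others, at 0.369 times the median of the others in basal RNA and 0.383 times in basal RPF, while basal and DHPG values overlapped.

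Ugt8a varied most of the 9 in RPF, with an SD of log2 CPM of 0.65 in basal and 0.67 in DHPG slices. Its RPF was at 372, 415, 411, 142 and 274 CPM in basal and 420.2, 479, 439, 159 and 265 CPM in DHPG slices, so that replicate 4 had 0.363 and 0.370 times the median of the others. Its RNA in replicate 4 was 0.545 times the median in basal and 0.539 times in DHPG slices. Mog ranged from 92.3 to 271 CPM in RNA and from 98.3 to 246 CPM in RPF, and its replicate 4 was at 0.399 times the median of the others in basal RNA and 0.483 times in basal RPF.

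Mbp, the highest of the 9 in RPF per length, varied least in basal RNA, with an SD of log2 CPM of 0.25. Its RNA was at 409, 459, 461 and 318 CPM in basal and 447, 593, 535, 315 and 363 CPM in DHPG slices. Its RPF was at 1424, 1338, 1217, 824 and 1308 CPM in basal and 1333, 1528, 1189, 892 and 1085 CPM in DHPG slices. Replicate 4 was again lowest in each group, at 0.623 to 0.708 times the median of the others, and the treatments overlapped.

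Mobp departed from the set in RPF. There it was at 74.97, 136, 137, 84.3 and 118 CPM in basal and 78.2, 161, 138, 96.1 and 108 CPM in DHPG slices, with replicate 1 and not replicate 4 the lowest. Its RNA was at 57.4, 53.4, 38.4 and 31.1 CPM in basal and 54.6, 60.8, 45.2, 39.3 and 41.0 CPM in DHPG slices, where replicate 4 was the lowest of each group.

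Cldn11 and Mal were nearly flat among the other basal RNA libraries. Cldn11 RNA was at 315, 309, 304 and 163 CPM in basal and 378, 350.2, 333, 221 and 331 CPM in DHPG slices. Mal RNA was at 261, 266, 258 and 172 CPM in basal and 274, 305, 254, 192 and 281 CPM in DHPG slices. In RPF, Cldn11 ranged from 308 to 671 CPM and Mal from 162 to 349 CPM over all 10 libraries, replicate 4 being the lowest of each group. Replicate 4 was also the lowest of each group for the remaining genes, with Cnp at 421 to 858 CPM and Gltp at 25.8 to 61.1 CPM in RNA, and Cnp at 674 to 1164 CPM and Gltp at 20.7 to 36.7 CPM in RPF.

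**Figure D2:**
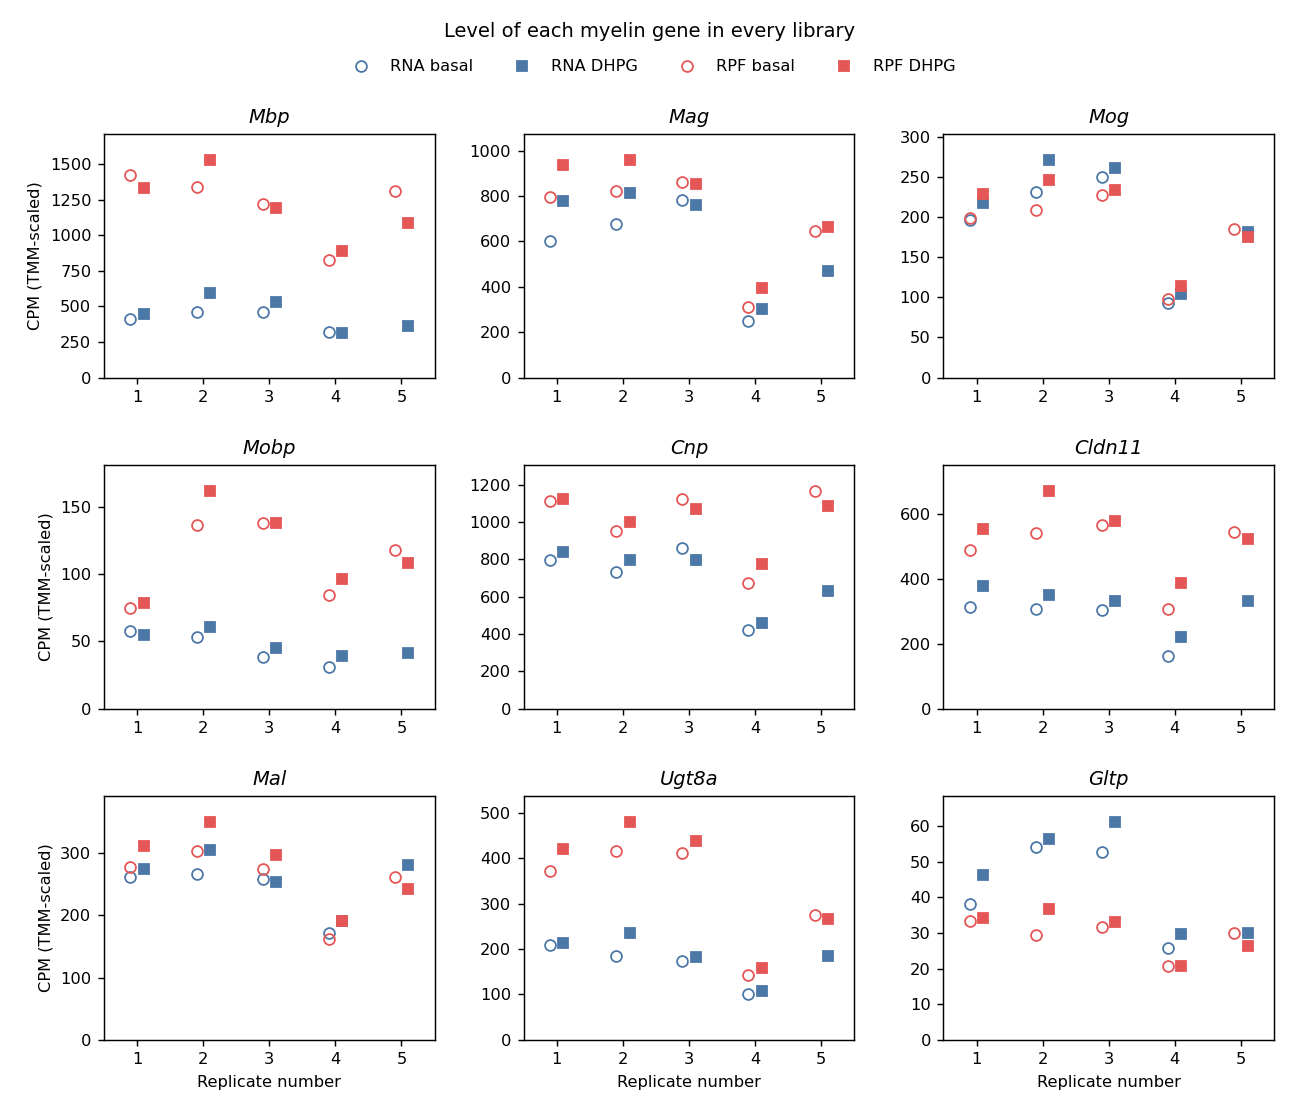
CPM of the 9 myelin genes in every library against replicate number, with RNA in blue, RPF in red, basal slices as open circles and DHPG slices as filled squares. Replicate 4 is lowest in every group for 8 of the genes, and Mobp RPF is lowest in replicate 1.

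Counted over the set, 8 of 9 genes were lowest in replicate 4 in all 4 groups, against 3.9% of the 12691 genes tested in both assays. The median SD of log2 CPM was 0.47 over the 9 genes and 0.26 over all genes in basal RNA, 0.38 and 0.23 in DHPG RNA, 0.37 and 0.15 in basal RPF, and 0.35 and 0.16 in DHPG RPF. Without replicate 4, a comparison chosen after seeing the data, it was 0.13 against 0.22 in basal RNA and 0.12 against 0.13 in basal RPF, and in the DHPG groups 0.25 against 0.22 and 0.22 against 0.15. In the basal groups the 9 genes thus lay below the spread of the median gene without replicate 4 and above it with replicate 4. In basal RNA and basal RPF, replicate 4 was lowest for 9 and 8 of the 9 genes, against 31.6% and 24.9% of all genes. Leaving it out therefore narrows the 9 genes more by construction. In the DHPG groups the 9 genes lay above the median gene either way.

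In the libraries with a partner of the same number, 94.3% of the variance of RNA and 95.2% of that of RPF lay between replicate numbers at the median of the 9 genes, against 75.4% and 72.4% at the median of all genes. Treatment held 3.69% and 1.01% at the median of the 9 genes, against 3.73% and 3.78%. The widest replicate share was that of Ugt8a RPF, 98.4%, and the narrowest that of Cldn11 RNA, 86.2%, where treatment held 11.4%.

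Other oligodendrocyte genes followed in part. Of 28 further genes of mature oligodendrocytes, 13 were lowest in replicate 4 in all 4 groups, among them Opalin and the sulfatide synthase gene Gal3st1, and so were 6 of 10 genes of precursors and newly formed cells, among them Pdgfra and Cspg4. The counts were 1 of 8 oligodendrocyte transcription factors, 4 of 12 microglial, 2 of 12 astrocyte, 1 of 12 neuronal and 0 of 10 endothelial genes. The median deviation from the group mean in replicate 4 was -0.68, -0.52, -0.63 and -0.51 for the 9 genes in basal RNA, DHPG RNA, basal RPF and DHPG RPF. In the same order it was -0.35, -0.31, -0.48 and -0.31 for the 28 further oligodendrocyte genes. Genes of precursors and newly formed cells were at -0.53, -0.33, -0.62 and -0.52. Oligodendrocyte transcription factors were at -0.70, -0.40, -0.13 and -0.06, with 8, 7, 6 and 4 of 8 below the group mean. For microglial genes it was -0.24, -0.33, -0.31 and -0.17, with 12, 12, 12 and 11 of 12 below the group mean, and for endothelial genes -0.28, -0.11, -0.27 and 0.0096. For astrocyte genes it was -0.11, -0.07, 0.03 and 0.06, and for neuronal genes 0.01, 0.11, -0.00 and 0.03. Genes enriched in thalamus, which borders the hippocampus, were at 0.14, 0.35, 0.18 and 0.35, the highest of each group, and their part in the low myelin level of replicate 4 was not tested.

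**Figure D3:**
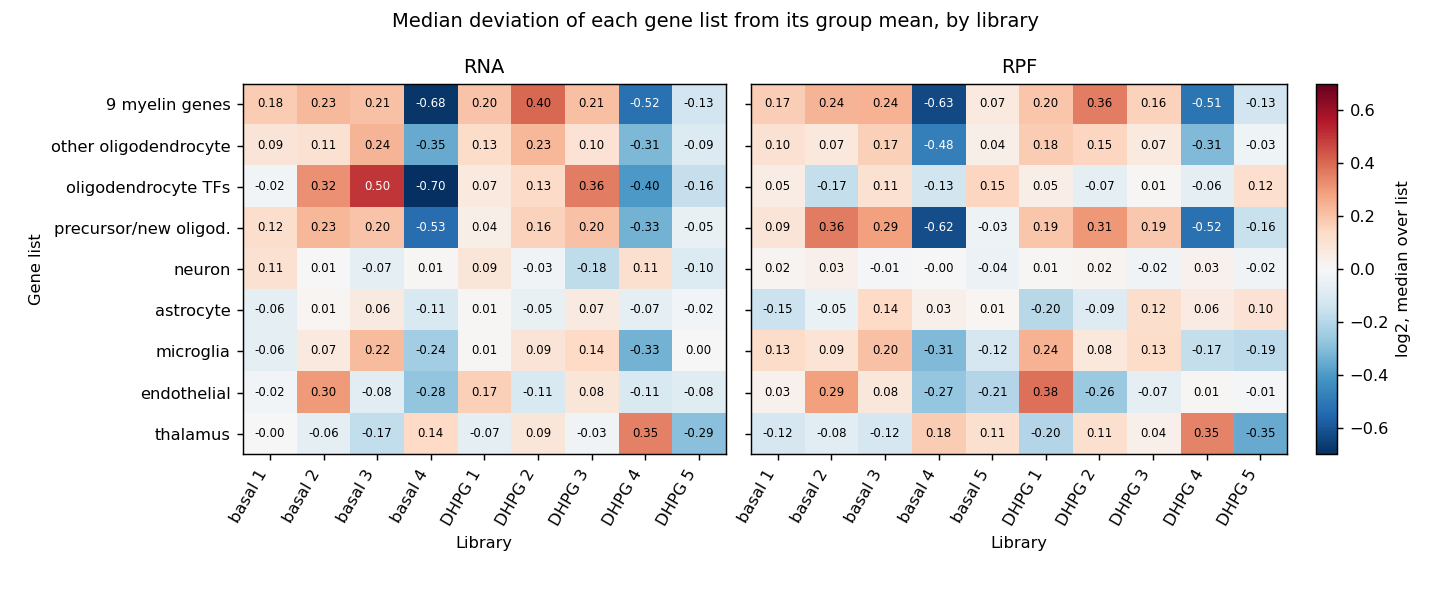
Median over each gene list of the deviation of log2 CPM from the mean of the library's group, for the 9 RNA and 10 RPF libraries (red above and blue below the group mean). In replicate 4 the 9 myelin genes lie at -0.51 to -0.68 in all 4 groups, microglial genes at -0.17 to -0.33, neuronal genes between -0.00 and 0.11, and thalamus genes between 0.14 and 0.35.

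Among the genes whose levels followed the 9 most closely, Tspan2 and Enpp6 were on the oligodendrocyte lists. Likeness was the Pearson correlation of log2 CPM with the mean standardized level of the 9 genes, a description over libraries that share lysates and pools and that replicate 4 dominates. In RPF, over 10 libraries, the closest included Slc12a2 and Enpp6 with 0.986 each, Tspan2 with 0.982 and Chn2 with 0.981. In RNA, over 9 libraries, they included Tmem63a with 0.978, Slc44a1 with 0.977, Gsn with 0.976 and Slc7a8 with 0.975. The median correlation was 0.85 in RPF and 0.80 in RNA over the 28 other oligodendrocyte genes, and -0.02 and 0.02 over all other genes. Within the set, Mobp RPF was the least like the mean of the 9, with 0.536, and Mog RPF the most, with 0.992. That mean contains the gene itself, which raises these values, so they cannot be set beside those of genes outside the set.

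After DHPG, all 9 RNAs had a fitted log2 fold change above 0, and none passed an adjusted p of 0.01 in edgeR's quasi-likelihood test with Benjamini-Hochberg adjustment. The median was 0.16, against 0.0068 over all genes. Of the 12935 genes tested, 52.1% lay above 0 and 0.00773%, a single gene, was called. The unadjusted p was under 0.05, with a higher level, for 5 of 9 (Cldn11, Mag, Mbp, Gltp and Mog), against 5.2% of all genes. The level was higher in every one of 4 replicate pairs for 4 of 9 (Cldn11, Gltp, Mog and Ugt8a), against 8.67%. With DESeq2 and the replicate block 0 of 9 passed as well, and after ComBat and DESeq2 Cldn11 alone did. The 9 genes were chosen with results of these data known, so that these shares are descriptions.

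Cldn11 RNA had the largest fold change, 0.25 (SE 0.07, adjusted p = 0.429 in edgeR), with pair differences of 0.26, 0.18, 0.13 and 0.44. Mag followed with 0.21 (SE 0.07, adjusted p = 0.538), with 0.37, 0.26, -0.04 and 0.27, so that pair 3 went against the others. Mbp was at 0.18 and higher in 3 of 4 pairs, and Cnp was the least changed at 0.05. Each of these 4 changes was smaller than the gene's SD of log2 CPM between basal replicates (0.25 to 0.74). That SD is unpaired, whereas the fit compares treatments within replicate pairs.

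In RPF the 9 genes had a median log2 fold change of 0.11, against 0.0031 over all genes, and 8 of 9 lay above 0, against 51.4% of the 13208 genes tested. Mag alone rose past an adjusted p of 0.05, which 0.22% of all genes passed. Its log2 fold change was 0.16 (SE 0.04, adjusted p = 0.0337 in edgeR's quasi-likelihood test), with differences of 0.23, 0.22, -0.01, 0.35 and 0.03 in pairs 1 to 5. The call was lost without replicate 1 (0.14, adjusted p = 0.267), without replicate 2 (0.14, adjusted p = 0.329) and without replicate 4 (0.11, adjusted p = 0.202). It was also lost with DESeq2 and the replicate block (0.16, adjusted p = 0.198) and without the block (0.14, adjusted p = 1), and kept without replicates 3 or 5, the adjusted p ranging from 0.000131 to 1 over 12 alternatives.

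Below that threshold, Cldn11 RPF was at 0.15 (adjusted p = 0.0696), Mal and Ugt8a at 0.12 each (0.162 and 0.136) and Mog at 0.11 (0.225). With Mag these made 5 of 9 with a higher level at an unadjusted p under 0.05, against 6.55% of all genes. Mobp was at 0.07 (0.02 without replicate 2 and 0.13 without replicate 5), Gltp at 0.07 and Cnp at 0.02. Mbp, at -0.02 (SE 0.04, adjusted p = 0.902), was the only one below 0, and without replicate 5 it was at 0.04.

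The change differed between pairs. The median RPF difference over the 9 genes was 0.16, 0.22, 0.03 and 0.20 in pairs 1 to 4 and -0.10 in pair 5, where 8 of 9 genes were lower after DHPG and Mag was at 0.03. Mag was lower in pair 3, and 0 of 9 RPFs were higher in every pair, against 5.16% of all genes. Without replicate 5, 5 of 9 RPFs passed, namely Mag, Cldn11, Mal, Ugt8a and Mog, while calls over all genes numbered 50 of 13241, against 29 of 13208 with every replicate. Thalamus genes had a median RPF difference of 0.22, 0.40, 0.37 and 0.37 in pairs 1 to 4 and -0.16 in pair 5. They were thus also below 0 in pair 5, but they differed from the 9 genes in pair 3. In pair 5 the further oligodendrocyte genes had a median of -0.03, oligodendrocyte transcription factors 0.06 and genes of precursors and newly formed cells 0.05. The part of any of these lists in the result was not tested.

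**Figure D4:**
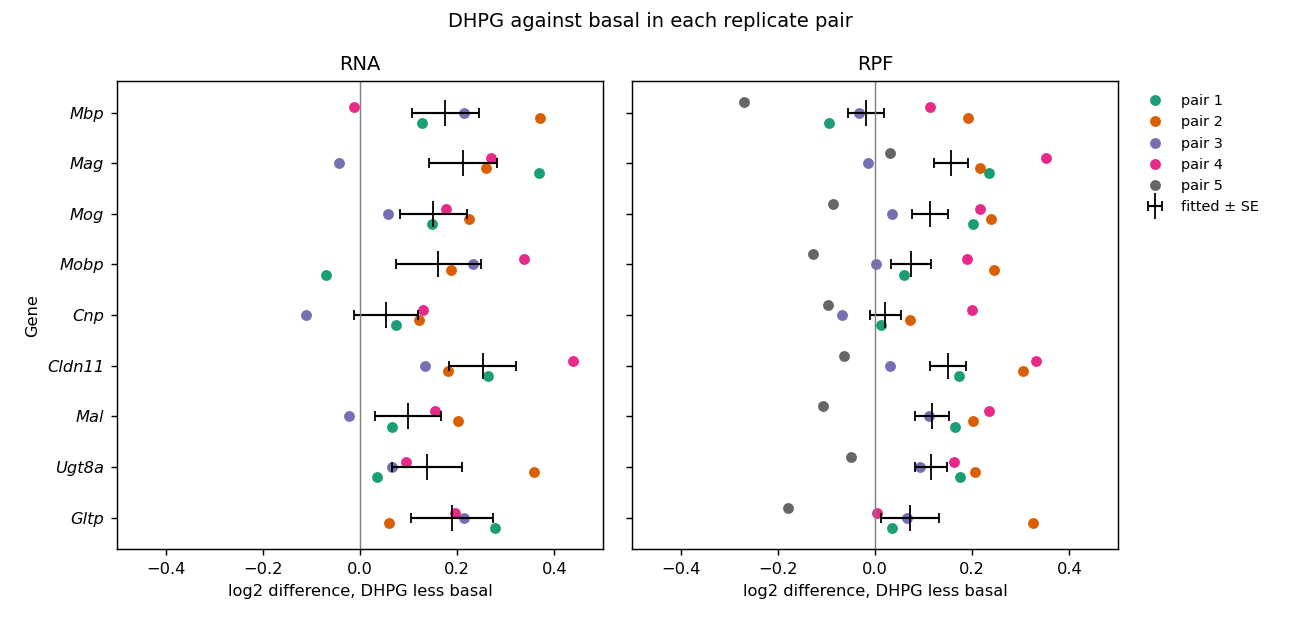
Log2 difference of DHPG less basal for the 9 myelin genes, in RNA over 4 replicate pairs and in RPF over 5 (colored points), with the fitted log2 fold change ± SE in black. RNA fits lie between 0.05 and 0.25 and RPF fits between -0.02 and 0.16, and pair 5 (gray) lies below 0 in RPF for every gene but Mag.

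The change of RPF less that of RNA, which asks whether ribosome density shifted, passed the test for 0 of 9 genes at an adjusted p of 0.05, against 0% of the 12691 genes tested, in edgeR's quasi-likelihood test of the interaction, and for 0 of 9 with limma on the difference. The median was -0.05 over the 9 genes and -0.0011 over all genes, and 1 of 9 (Mal, 0.02) lay above 0, against 49.7%. Within matched pairs 1 to 4, however, 4, 5, 4 and 6 of 9 genes lay above 0. The medians there were -0.06, 0.0008, -0.02 and 0.07, without a common direction. Mbp was the only one with an unadjusted p under 0.05, lower at -0.19 (SE 0.08, unadjusted p = 0.0204, adjusted p = 0.690), a share of 1 of 9 against 3.62% of all genes. Its pair differences were -0.22, -0.18, -0.25 and 0.12. The interaction fit did not link the RNA and RPF libraries of 1 lysate, whereas limma on the difference takes them together. The interaction also used RPF pair 5, which has no RNA partner, and without replicate 5 the values of Mog, Cnp and Ugt8a were above 0.

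Other lists of the oligodendrocyte lineage also had medians above 0, and genes of thalamus had higher ones. Among 28 further genes of mature oligodendrocytes, 28 RNAs and 21 RPFs lay above 0, with medians of 0.15 and 0.08, and 0 passed in RNA or RPF, 7 and 12 having an unadjusted p under 0.05. The largest RNA changes among those higher in every pair were 0.23 for Cers2, a ceramide synthase, and 0.23 for Ppp1r14a, and in RPF only Trf, the transferrin gene, was higher in 5 of 5 pairs (0.11). Their change of RPF less RNA had a median of -0.05, and 0 of 28 passed.

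Of 8 oligodendrocyte transcription factors tested, 7 RNAs and 8 RPFs lay above 0, with medians of 0.24 and 0.08. Tcf7l2 RPF alone passed the threshold (0.31, adjusted p = 0.0299 in edgeR), and Tcf7l2 is also a marker of thalamic neurons. Tcf7l2 RNA was at 0.61 (adjusted p = 0.538), Myrf RNA, a master regulator of myelin genes, at 0.37 (adjusted p = 0.318) and Zfp488 RPF at 0.25 (adjusted p = 0.449), each higher in every pair. Of 10 genes of precursors and newly formed oligodendrocytes, 10 RNAs and 9 RPFs lay above 0, each with a median of 0.11, and 0 passed. Bmp4 RNA was at 0.48, Lhfpl3 RNA at 0.19, Enpp6 RPF at 0.15 and Vcan RPF at 0.14, each higher in every pair. Bmp4 RNA had only 11 to 25 counts per basal library.

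Genes of thalamus, a list drawn up with their calls known, had medians of 0.29 in RNA and 0.22 in RPF, with 13 of 14 and 15 of 16 above 0. Prkcd RNA (0.70, adjusted p = 0.00444 in edgeR) was the only called RNA of the whole table, and 6 RPFs passed, Prkcd (0.43), Shox2 (1.32), Slc17a6 (0.23), Tcf7l2 (0.31), Tnnt1 (0.81) and Zic1 (0.66). Tnnt1 RNA was at 1.34 and Synpo2 RNA at 0.78 without passing. The largest of these changes rest on few counts, with 2 to 10 per basal library for Shox2 RPF and 3 to 14 for Tnnt1 RNA.

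Of the genes of the remaining cell types, 0 passed in RNA or RPF. Neuronal genes had medians of 0.01 and -0.0029, with Camk2a RNA at 0.18 and Slc12a5 RPF at 0.06, each higher in every pair. Astrocyte genes had medians of 0.07 and 0.05, with Sox9 RNA at 0.53, Gja1 at 0.17 in RNA and 0.12 in RPF, and Fgfr3 RPF at 0.13. Microglial genes had medians of -0.0030 and 0.10, with 12 of 12 RPFs above 0, Cx3cr1 RNA at 0.12, C1qb RNA at 0.09, Itgam RPF at 0.15 and Csf1r RPF at 0.13. Endothelial genes had medians of -0.05 and -0.13, with Slco1a4 RNA at -0.32 and lower in every pair. Differences between lists were not tested.

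**Figure D5:**
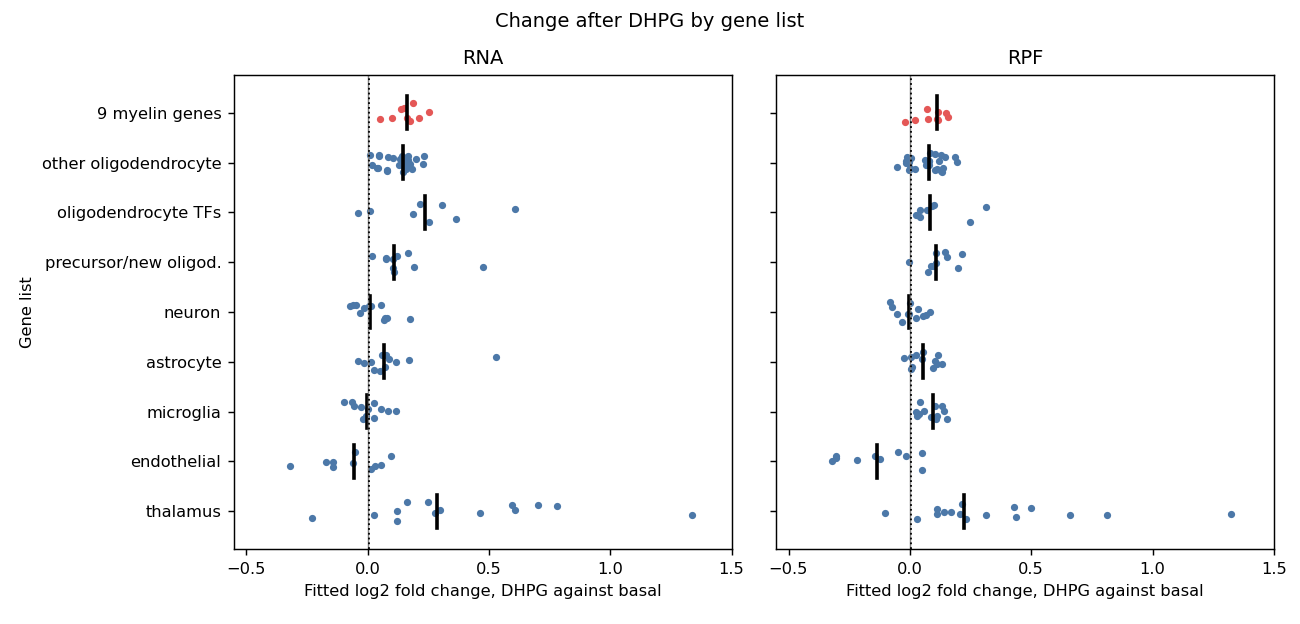
Fitted log2 fold change of DHPG against basal for each gene of 9 lists in RNA and RPF (points, with the 9 myelin genes in red), with the median of each list as a black bar and the median of all genes as a dotted line. The 9 myelin genes have medians of 0.16 and 0.11, neuronal genes 0.01 and -0.0029, and thalamus genes 0.29 and 0.22.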

How the data were processed

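RNA-seq (9 libraries) and ribosome profiling (10) were analysed from the deposited tables. Per the labels and the study's methods, the authors trimmed adapters, removed rRNA and tRNA reads, mapped to mm10 with TopHat2, kept unique reads without UMI duplicates and estimated counts with RSEM, for RPFs on RefSeq coding sequences without 30 nt at each end and for RNA on whole transcripts. The deposited expected counts were rounded here, and 12 columns that belong to no sample of the series were not used. Members and gene lists were chosen with earlier results of these data known.

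Genes were filtered with filterByExpr, scaled by TMM and tested with edgeR 4.0.16 (R 4.3.3), in the quasi-likelihood test with the replicate number as a block and Benjamini-Hochberg adjustment over all genes. A call needed an adjusted p under 0.01 in RNA and 0.05 in RPF, the study's thresholds, and 0.05 in the interaction of assay and treatment, which was fitted over all 19 libraries. The DHPG RNA library of replicate 5 has no basal partner and adds nothing to the RNA effect. Replicate numbers were taken to pair the samples. Deviations from the group means correlated between basal and DHPG libraries of every number (0.308 to 0.741 in RNA, 0.259 to 0.523 in RPF). Correlations between different numbers were not computed, so these values do not test the pairing. The pools are separate, while RNA and RPF of 1 pool share a lysate.

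CPM are TMM-scaled, and log2 CPM used a prior count of 2. Lengths were medians over the coding transcripts of GENCODE vM21 basic (mm10) and matched 95.5% of genes; 60 nt were taken off coding lengths. Named were the 9 members, all called genes of the other lists, up to 2 genes per list and assay with the largest change among those moving alike in every pair, and the 5 genes most like the members. Alternatives were DESeq2 1.42.0 size factors or test, ComBat (sva 3.50.0) before DESeq2, other filters and thresholds, no block, limma 3.58.1 on the difference, and each replicate left out. Scripts were tested on simulated data. Some genes that this rule names are not reported here. The gene positions on mm10 are chr18:82475146-82585637 for Mbp, chr9:120149707-120181484 for Mobp, chr7:30899176-30914873 for Mag, chr17:37010743-37023398 for Mog, chr11:100574904-100591729 for Cnp, chr3:31149920-31164324 for Cldn11, chr2:127633226-127656695 for Mal, chr3:125865271-125938619 for Ugt8a and chr5:114669398-114690984 for Gltp.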

Additional observations from a re-analysis of the deposited data

Results flagged for a closer look

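Each of the 9 genes and their sum was screened in the 4 groups of libraries, 40 sets of values in all, for a single library standing apart. In 3 of the 40 sets there was one, and each time it was replicate 4. About 1 in 20 is expected by chance among independent sets, and 3 of 40 is not far from that share. The sets are not independent, because the genes share libraries and the sum is made of them, and the count was not tested. Cldn11 was at 163 CPM in basal RNA 4, and the other basal RNA libraries were at 304 to 315 CPM. Mal was at 172 CPM in basal RNA 4, against 258 to 266 CPM. The sum of the 9 genes was 2620 CPM in basal RPF 4, against 4540 to 4850 CPM.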

How the results depend on the processing

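The median log2 fold change of the 9 genes stayed above 0 in RNA (0.11 to 0.17) and RPF (0.07 to 0.16) and below 0 in the change of RPF less RNA (-0.07 to -0.0081) in every alternative run, and the basal ratio kept a median of 2.1 to 2.35. Calls depended on the method. Over all genes, RNA calls numbered 7 without the filter, 0 with at least 10 counts in every library, 0 with DESeq2 and the replicate block, 100 after ComBat and DESeq2 (where 1 of the 9 genes, Cldn11, passed), and 0 to 22 with a replicate left out. RPF calls numbered 96 without the filter, 427 after ComBat and DESeq2, 8 at an adjusted p under 0.01 and 3 to 71 with a replicate left out. Of the 9 genes, 3 RPFs passed without the filter, 0 with DESeq2 and the replicate block, 5 after ComBat and DESeq2, 0 at an adjusted p under 0.01 and 0 to 5 with a replicate left out. Calls for RPF less RNA numbered 3 without the filter and 0 to 8 with a replicate left out. Without the replicate block, 0 RNAs, 0 RPFs and 0 of the 9 genes passed. The median SD of log2 CPM over the 9 genes was 0.135 to 0.534 in basal RNA, 0.124 to 0.414 in basal RPF and 0.220 to 0.391 in DHPG RPF with a replicate left out.

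Of single genes, RPF changes with a replicate left out ranged from -0.0156 to 0.133 for Gltp (negative without replicate 2), from -0.0213 to 0.0512 for Cnp (negative without replicate 4) and from -0.0740 to 0.0445 for Mbp (positive without replicate 5). By over 1.5 times but with the same sign, RNA changes moved without replicate 2 for Mbp (to 0.11), Ugt8a (0.06), Mal (0.07) and Cnp (0.03), without replicate 4 for Mobp (0.10) and Cnp (0.03), without replicate 1 for Mobp (0.25) and without replicate 3 for Cnp (0.11), and RPF changes without replicate 2 for Mobp (0.02) and Mog (0.07) and without replicate 5 for Mobp (0.13). Without the replicate block, RNA changes fell to 0.11 for Mag, 0.07 for Gltp, 0.10 for Mobp and 0.0033 for Cnp. The RPF change of Cnp fell to 0.0084 there. The change of RPF less RNA turned to 0.0342 for Mag, 0.0125 for Mog, 0.0052 for Cnp and -0.0071 for Mal without the replicate block and to 0.0215 for Mog, 0.00051 for Cnp and 0.0205 for Ugt8a with limma. With a replicate left out it ranged from -0.0676 to 0.0279 for Ugt8a (positive without replicates 2 and 5), from -0.0187 to 0.0842 for Mal (negative without replicate 3), from -0.0476 to 0.0252 for Mog and from -0.0620 to 0.0069 for Cnp (both positive without replicate 5). The cause was not tested.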
